A study of Mus musculus with 2 samples.

Results

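Cholesterol efflux is the path by which macrophages hand surplus cholesterol to lipoproteins. Here 10 genes of efflux and of related lipid handling were followed across a pair of macrophage cultures. The genes were Nr1h3 and Nr1h2, which encode the liver X receptors LXRα and LXRβ, the transporter genes Abca1 and Abcg1, the apolipoprotein genes Apoe and Apoc2, the phospholipid transfer protein gene Pltp, the lipoprotein lipase gene Lpl, and Pparg and Fabp4, which encode PPARγ and a fatty acid binding protein. They are 10 of the 22910 genes that could be named on the array, and their 18 probes were found through the transcript accession of each probe. The choice of these genes was made with their differences between the cultures already known, so the differences are given as a description with no test.

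Bone marrow cells of C57BL/6 mice were grown in RPMI1640 medium with 10% FCS and 100 ng/ml recombinant human M-CSF, the growth factor that drives macrophage differentiation. Per the labels, primary macrophages were taken at day 5 of culture, and the self-renewing macrophages, which kept on dividing in the same factor, after passage 4. Total RNA of each culture was labelled with Cy3 and hybridised to 1 Agilent mouse expression array, and both arrays lay on the same slide. Both samples are bulk cultures and not clones, the age of the mice is not given, and the labels name no other treatment. With these samples, cell type, passage and time in culture cannot be told apart.

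Of 10 macrophage markers, 10 were well above background on both arrays, among them Csf1r, the M-CSF receptor gene, with an intensity of 113750 in the primary and 153276 in the self-renewing macrophages, and Adgre1, the gene of F4/80, with 65170 and 96314. At 2-fold, 1 of the 10 was higher in the self-renewing macrophages, Mertk, and 1 lower, the Fc receptor gene Fcgr1, which read 5516 and 1675. Both samples are labelled as male, but of 6 Y-linked genes the primary array had 0 well above background and the self-renewing array 4, while Xist passed that flag in the primary macrophages alone. Donor sex as read from these genes therefore also moved with cell type. Neutrophil markers moved with it too: 8 of 10 were measured, 8 of these were lower in the self-renewing macrophages and 7 at least 2-fold, and their summed intensity was 51678 on the primary and 2908 on the self-renewing array. S100a8, S100a9, Ngp and Ltf passed the background flag in the primary macrophages alone, and of these S100a8 and S100a9 are also abundant in monocytes. Elane, the neutrophil elastase gene, differed least of the 8, with 3602 and 2671. The part of donor sex, passage or neutrophil RNA in the differences below was not tested.

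The LXRs are nuclear receptors that bind oxysterols, the oxidised derivatives of cholesterol, and act on DNA as heterodimers with a retinoid X receptor. In macrophages they switch on the cholesterol exporters ABCA1 and ABCG1, which load apolipoprotein A-I and high-density lipoprotein, and secreted apolipoproteins and lipid-modifying enzymes such as ApoE, ApoC-II, PLTP and LPL. PPARγ is a receptor for fatty acid derivatives that promotes lipid uptake and can raise LXRα expression, and FABP4 is a classical product of its activity in fat cells and macrophages.

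Each value below is the background-corrected intensity of a probe on each array, and each difference is on the log2 scale, self-renewing minus primary, after both arrays were set to their 75th percentile, an intensity of 434 on the primary and 446 on the self-renewing array. A probe counts as measured where the scanner software flags it as well above background on at least 1 array. With 1 array per cell type there are no replicates, so the differences have no error between cultures and no test was made. Measures of technical spread were available: over 5077 genes the log2 differences of probes for the same gene had an SD of 0.325 as a root mean square, and repeated spots of a probe by a median SD of 0.0415 and 0.0454 on the arrays. In bulk RNA, fewer cells that express a gene and less RNA per cell cannot be told apart.

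**Figure D1:**
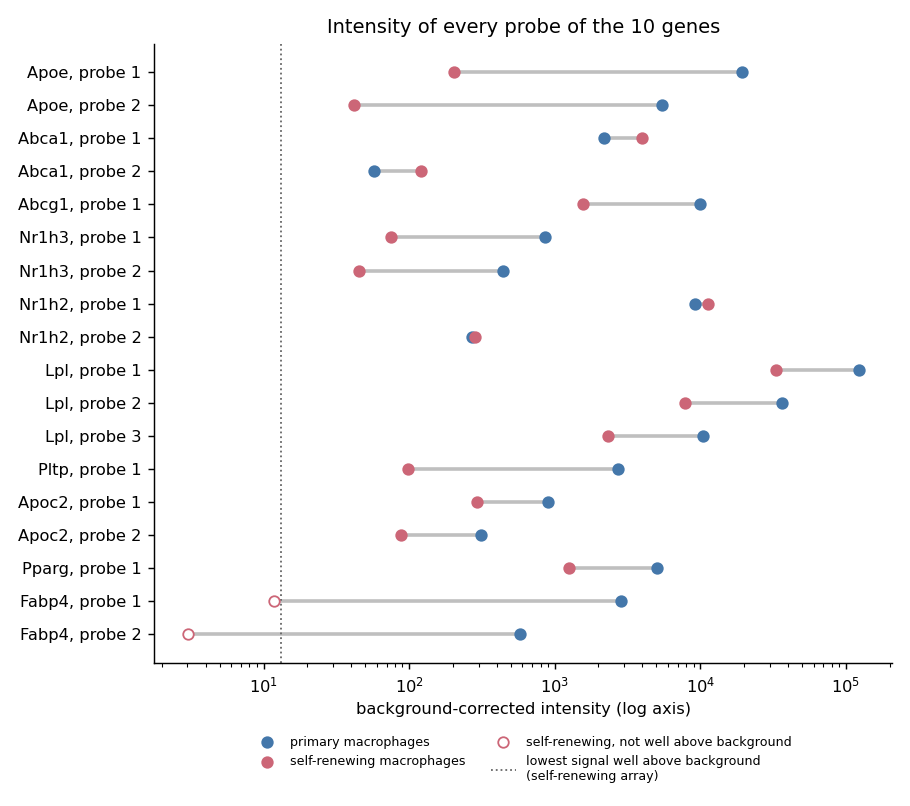
Background-corrected intensity (log axis) of every probe of the 10 genes on the primary and on the self-renewing array, 1 row per probe with a bar joining its values, and a dotted line at the lowest intensity flagged as above background for self-renewing macrophages, 13.2. The self-renewing point lies right of the primary point for the Abca1 and Nr1h2 probes and left of it for the other 14, and both Fabp4 probes reach past the dotted line.

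Of the 10 genes, 8 had at least 2-fold lower signal in the self-renewing macrophages, and 0 had at least 2-fold higher signal. Over the 15515 named genes measured, 8.38% were at least 2-fold lower and 4.76% at least 2-fold higher. The authors' own scaling shifts all differences up by 0.19 and gives 1069 genes lower and 1035 higher, in place of 1300 and 739. At 5-fold, 5 of the 10 genes were lower and 0 higher, against 2.93% and 1.02% of all named genes. The median difference of the 10 genes was -2.38 and that of all named genes -0.02. Counted by probe, 14 of 18 were at least 2-fold lower and 1 at least 2-fold higher, against 6.54% and 4.61% of all gene probes. Since the genes were chosen on this contrast, the counts describe the choice and support nothing further.

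The LXR genes differed from each other. Nr1h3, the gene of LXRα, had an intensity of 855 in the primary and 74.5 in the self-renewing macrophages at its brighter probe. Its other probe read 439 and 45.3. Both probes were lower in the self-renewing macrophages, by 11.8-fold and 9.97-fold, and both stayed well above background there, the brighter one 5.66-fold above the lowest intensity so flagged. Of 14003 genes measured on both arrays, 74 were lower still. Nr1h2, the gene of the widely expressed LXRβ, read 9175 and 11365 at its brighter probe and 269 and 285 at the other. Its differences of 0.27 and 0.04 are smaller than the SD between probes of a gene, which does not measure a shift shared by a whole array. Under the authors' scaling the larger became 0.46, above that SD. Of the genes measured on both arrays, 25.3% had a higher difference than Nr1h2.

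The exporters also differed in direction. Abca1, whose product moves cholesterol and phospholipid onto lipid-poor apolipoprotein A-I, had an intensity of 2176 in the primary and 3965 in the self-renewing macrophages, and 57.1 and 122 at its dimmer probe. Both probes were higher in the self-renewing macrophages, by 1.77-fold and 2.07-fold, and 831 of the 14003 genes were higher still. Abcg1, whose product supplies cholesterol to mature high-density lipoprotein, was read by 1 probe and stood at 9951 in the primary and 1571 in the self-renewing macrophages. Abcg1 was 6.51-fold lower where Abca1 was higher, with 147 of the 14003 genes lower still.

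Among the secreted proteins, Apoe had the largest difference among the 9 of the 10 genes measured on both arrays. Its brighter probe read 19469 in the primary and 205 in the self-renewing macrophages, and its other probe 5454 and 41.9. The probes gave 97.7-fold and 134-fold lower signal, and 5 of the 14003 genes measured on both arrays were lower still. That ranking leaves out genes measured on 1 array alone. Among those named here, Scd2, S100a9, S100a8, Fabp4 and Scd1 had bounds lower than Apoe, of -11.10, -10.96, -9.64, -7.81 and -7.36. Apoe RNA was still detected, at 15.6 times the lowest flagged intensity on the self-renewing array. Pltp, whose product remodels high-density lipoprotein by moving phospholipids, read 2713 and 98.6 at its 1 probe and was 28.3-fold lower, with 29 of the 14003 genes lower still. Apoc2, which encodes the obligate cofactor of lipoprotein lipase, read 897 and 291 at its brighter probe and 311 and 87.8 at the other. It was lower by 3.17-fold and 3.65-fold, a smaller difference than that of Apoe at both probes, and 346 genes were lower still.

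Lpl, which encodes the lipase that frees fatty acids from circulating triglyceride, was well above background on both arrays at all 3 of its probes. They read 122988, 36267 and 10481 in the primary macrophages and 32911, 7867 and 2343 in the self-renewing macrophages. The probes gave 3.84-fold, 4.74-fold and 4.60-fold lower signal. For Lpl, 270 of the 14003 genes were lower still.

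Pparg stood at 5021 in the primary and 1247 in the self-renewing macrophages at its 1 probe, 4.14-fold lower, with 247 genes lower still. Fabp4 was the only gene of the 10 that was measured on 1 array alone. Its brighter probe read 2877 in the primary and 11.8 in the self-renewing macrophages, where it was not flagged as above background. Its other probe read 574 and 3.02, with the same flags. Against the lowest flagged intensity on that array, Fabp4 was at least 225-fold lower by the brighter probe and at least 44.9-fold lower by the other. These bounds depend on the background correction. With normexp, a correction that raises dim values, the Fabp4 difference was -5.14, smaller than the bound of -7.81 by the brighter probe.

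**Figure D2:**
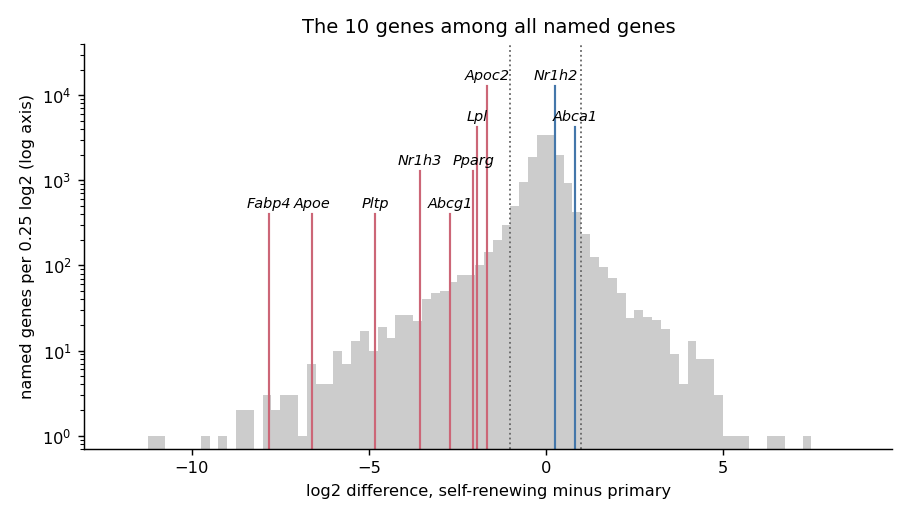
Histogram of the log2 difference, self-renewing minus primary, over the named genes measured on at least 1 array, on a log count axis, with the 10 genes marked by vertical lines and dotted lines at 2-fold. Apoe and Fabp4, the latter as a bound, lie in the far left tail, 6 genes lie left of the 2-fold line nearer the centre, and Nr1h2 and Abca1 lie between the 2-fold lines on the right.

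Across the genes with several probes, the probes gave the same direction in 7 of 7. The scanner's own error estimate for the log2 difference lay between 0.204 and 0.233 for the 16 probes well above background on both arrays, which is larger than the smaller Nr1h2 difference and close to the larger one. Among the genes with differences nearest that of Apoe, by the absolute gap between the log2 differences over the 2 arrays, were Ccr2, the receptor of the monocyte chemoattractant CCL2, at -6.64, Csrp2 at -6.42, Dcstamp, which encodes a cell fusion protein, at -6.38, and the cathepsin gene Ctsh at -6.19. Ccr2, Csrp2 and Dcstamp were dim in the self-renewing macrophages, at 37.5, 17.1 and 33.7, where Apoe read 205. With normexp their differences were -5.19, -4.21 and -4.88, and that of Apoe -6.25, so their nearness to Apoe depends on the background correction. For Abca1 the 5 nearest were Il10ra, Hdac4, H2al1e, Plcxd1 and Ttc28, all within 0.82 to 0.83. H2al1e and Plcxd1 were dim, at 30.7 and 32.6 in the primary macrophages. Under other processing they fell as low as 0.34 and 0.27, where Abca1 went no lower than 0.80.

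Promoter windows of RefSeq were matched for 7 of the 10 genes, with 12 windows of 300 bases that run from 250 before to 50 after a start site in GRCm38.p6. Abcg1, Lpl and Fabp4 were not matched. An LXR-RXR dimer binds a DR4 element, 2 copies of AGGTCA with 4 bases between them, and a PPAR-RXR dimer a DR1 element, with 1 base between them. Both strands were searched for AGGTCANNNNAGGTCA and AGGTCANAGGTCA, whose 12 fixed letters allow mismatches, and for a lone AGGTCA, which overlaps both. The 2 stretches below are shown because they hold the best DR4 match of the exporter gene with the higher signal and the best DR1 match among the 12 windows. Capitals mark the match, which lies 67 to 52 bases before a start site of Abca1 and 122 to 110 bases before that of Apoc2. The Abca1 site is not the outermost start of its gene, whereas the Apoc2 site is. Both are written 5′ to 3′ on the minus strand, which is the strand of the genes, at chr4:53159940-53159969 for Abca1 and chr7:19677942-19678083 for Apoc2.
Abca1: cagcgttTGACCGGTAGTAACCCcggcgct
Apoc2: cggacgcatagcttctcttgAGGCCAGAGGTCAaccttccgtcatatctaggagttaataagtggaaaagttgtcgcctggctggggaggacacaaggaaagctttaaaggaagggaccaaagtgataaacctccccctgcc

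The Abca1 stretch read on the other strand is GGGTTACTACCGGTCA, with 3 mismatches to the DR4 letters, and 21.9% of the 32851 windows of all genes held a match as good. A Pparg window also had a DR4 match with 3 mismatches, and the other windows had 4 or more. The Apoc2 stretch covers the 142 bases up to its start site and holds AGGCCAGAGGTCA, with 1 mismatch to DR1, as good a match as 0.554% of all windows had. That share is per window, whereas the Apoc2 match was picked as the best of 12 windows. For Apoe the best DR1 match had 3 mismatches, a score that 24.6% of all windows reached. A lone AGGTCA stood in the Apoc2 window, where it is part of the DR1 match, and in 2 Pparg windows, against 16.3% of all windows. A letter match is no evidence of binding, and its absence from a window says nothing of the factor.

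Apoe lies in a cluster with Apoc1, Apoc4 and Apoc2, and the gene table also has a readthrough gene across Apoc4 and Apoc2 whose signal cannot be told apart from that of Apoc2. The 5 named genes on either side of Apoe gave a median difference of -0.27. Apoc1, the nearest apolipoprotein gene, read 66.5 and 34.4, a difference of -0.99, and Apoc4 was well above background on neither array. On the other side, Tomm40, which encodes the channel of the mitochondrial import machinery, differed by -0.27 and Nectin2 by -0.01, the latter turning to 0.18 under the authors' scaling. The NF-κB genes Relb and Bcl3 at the ends of the span were higher, by 1.61 and 0.96. Of the neighbours measured on both arrays, Apoc2 was the lowest, at -1.67.

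**Figure D3:**
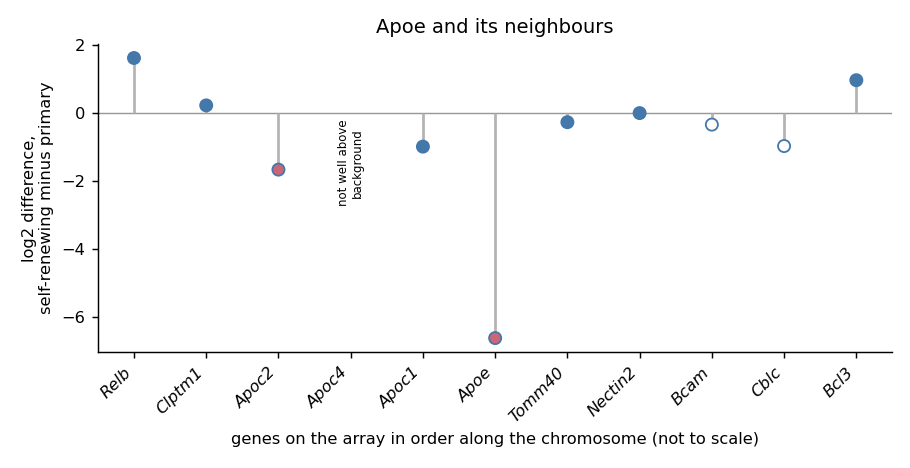
Log2 difference, self-renewing minus primary, of Apoe and the 5 named genes on either side of it in gene order, with stems from 0, open symbols for bounds where a gene was measured on 1 array only, and no symbol for Apoc4, which was measured on neither. Apoe stands at -6.61, Apoc2 at -1.67, and the other neighbours measured on both arrays between -0.99 and 1.61.

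Other genes known as LXR targets went both ways. Of 17, 15 were measured, and at 2-fold 6 were lower and 3 higher. Over all named genes 8.38% were at least 2-fold lower and 4.76% higher, shares that also stand beside the counts of the lists below. Their median of -0.87 moved to -0.40 with normexp and to -0.33 both without the background filter and with the filter on both arrays. The lower genes were led by the fatty acid desaturase genes. Scd2 read 28111 in the primary and 3.55 in the self-renewing macrophages and Scd1 2100 and 3.10, both below background in the latter, which gave bounds of -11.10 and -7.36. Cd5l, the gene of a secreted macrophage survival protein, read 28113 and 3115, a difference of -3.21. Scarb1, the gene of a high-density lipoprotein receptor, Fasn, the gene of fatty acid synthase, and Lpcat3, which encodes a phospholipid-remodelling enzyme, were lower by 3.30-fold, 2.62-fold and 2.44-fold.

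The 3 higher LXR targets had other roles. Mertk, the gene of a receptor for apoptotic cells, read 524 and 2520 and was 4.68-fold higher. Tgm2, the gene of tissue transglutaminase, read 2002 and 5848, and Smpdl3a, which encodes a phosphodiesterase, 11954 and 34872, each 2.84-fold higher. Srebf1, the gene of the lipogenic factor SREBP-1, differed by -0.87, and Mylip, which encodes a ubiquitin ligase, by 0.36.

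The partners through which LXRs act differed little. Of 15 RXR and coregulator genes, 14 were measured, 0 were at least 2-fold lower and 1 was at least 2-fold higher, with a median of 0.20. Rxra, the main macrophage RXR gene, read 5590 and 13575, a difference of 1.24, but its probes ranged from 0.35 to 1.24 and their mean was 0.80, short of 2-fold. Rxrb differed by 0.32, and Rxrg was well above background on neither array. The corepressor gene Nrip1 had the lowest difference, -0.48.

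Of 14 genes of the PPAR family and its targets, 11 were measured, 4 were at least 2-fold lower and 0 higher, and the median of -0.12 turned to 0.07 under the authors' scaling. Angptl4, the gene of a secreted lipoprotein lipase inhibitor, read 854 and 50.7 and was 17.3-fold lower, a difference of -4.12 that became -3.10 with normexp. Cd36, the gene of a fatty acid and oxidised lipoprotein receptor, read 16308 and 2273 and was 7.38-fold lower. Fabp5, the epidermal fatty acid binding protein gene, read 91969 and 27619, 3.43-fold lower, and Plin2, which encodes a lipid droplet coat protein, 51513 and 21474, 2.47-fold lower. Ppara was well above background on neither array, and Ppard differed by -0.06, or 0.13 under the authors' scaling.

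**Figure D4:**
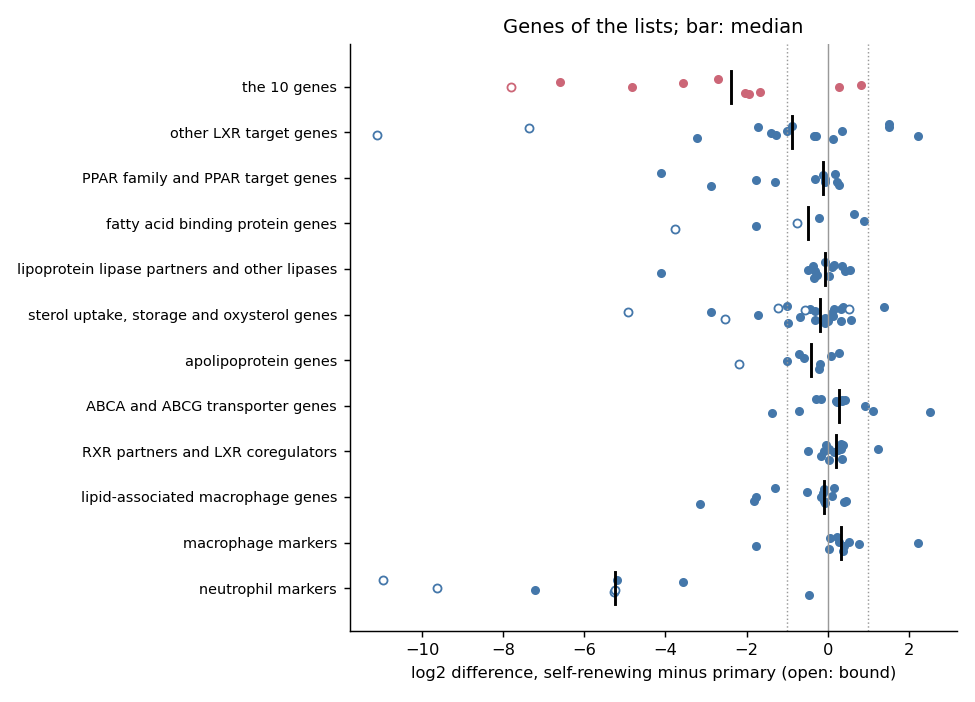
Log2 difference, self-renewing minus primary, of each measured gene of the 10 genes and of the related lists, 1 row per list, with a bar at the list median, open symbols for bounds and dotted lines at 2-fold. The 10 genes have a median of -2.38, the neutrophil markers lie lowest with a median of -5.26, and the RXR and coregulator genes and the lipase genes lie between the 2-fold lines apart from Rxra and Angptl4.

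Genes that bring in, store or oxidise sterols also went both ways: of 24 measured genes, 6 were at least 2-fold lower, 1 at least 2-fold higher, and the median was -0.19. Ch25h and Cyp27a1, whose enzymes make the LXR ligands 25-hydroxycholesterol and 27-hydroxycholesterol, read 387 and 74.2 in the primary macrophages and 6.73 and 3.30 in the self-renewing macrophages. Neither was well above background in the latter, and the bounds were at least 30.2-fold and at least 5.80-fold lower. With the normexp background correction, which raises dim values, the differences were -2.76 for Ch25h and -0.95 for Cyp27a1, so that the latter was no longer 2-fold lower. Soat2, which encodes a cholesterol-esterifying enzyme, read 114 and 307 and was 2.62-fold higher, while Soat1, the main macrophage enzyme of this kind, differed by -0.32. Npc1 and Npc2, whose products release cholesterol from lysosomes, differed by 0.13 and 0.11.

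Among the partners of lipoprotein lipase and other lipases, 17 genes were listed and 13 measured. At 2-fold 1 was lower, Angptl4, which is also a PPAR target, and 0 were higher. These counts are near the 8.38% lower and 4.76% higher of all named genes and do not set the list apart. The median of -0.07 turned to 0.12 under the authors' scaling and to 0.09 with no filter on background. Gpihbp1, whose product anchors the lipase on the vessel wall, differed by 0.34, and Lmf1, which encodes the factor that matures it, by -0.26. For Mgll, the monoglyceride lipase gene, the brightest probe gave -0.36 and another -3.11.

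Other genes of the exporter and binding protein families were compared too. Of the 20 other ABCA and ABCG genes on the array, 12 were measured, with a median of 0.29, and at 2-fold 2 were higher and 1 lower. Over all named genes the shares were 4.76% higher and 8.38% lower, so these small counts do not set the family apart. Abca5 read 31.6 and 186 and Abcg2, a xenobiotic exporter gene, 1020 and 2259, which gave 5.73-fold and 2.15-fold higher signal, although the Abca5 probes ranged from 0.58 to 2.52. Abcg3 read 305 and 121 and was 2.58-fold lower. The Abcg1 difference of -2.70 was lower than any of these 12. Of 14 other apolipoprotein genes, 8 were measured and had a median of -0.40, and 1, Clu, which encodes clusterin, was at least 4.55-fold lower as a bound, which became a difference of -0.80 with normexp, short of 2-fold. Of 9 other fatty acid binding protein genes, 6 were measured, and Fabp5 and Fabp7 were at least 2-fold lower, the latter by at least 13.6-fold as a bound and by a difference of -1.66 with normexp. The median of these 6 was -0.49 and turned to 0.22 when only probes well above background on both arrays were kept.

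Apoe and Lpl are also read as marks of lipid-associated macrophages, a state found in fat and in diseased tissue. Of 14 other genes of that state, 14 were well above background on both arrays, 4 were at least 2-fold lower and 0 higher, and the median of -0.10 turned to 0.09 under the authors' scaling. Trem2, the gene of a lipid-sensing receptor, read 79734 and 108405, a difference of 0.40, and its adaptor gene Tyrobp differed by 0.45. Gpnmb, a lysosomal glycoprotein gene, differed by -0.51. The genes at least 2-fold lower were Fabp5, Plin2, the cathepsin gene Ctsl, 3.53-fold lower, and the integrin gene Itgax, whose brightest probe read 5180 and 597 and whose other probe gave -1.69.

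Markers of other cells that make some of these proteins were measured too. Among 9 adipocyte markers, 6 were measured with a summed intensity of 551 in the primary and 633 in the self-renewing macrophages, 0 were at least 2-fold lower, and Adipoq, Plin1 and Cidea were well above background on neither array. Among 8 stromal markers, 3 were measured, with summed intensities of 4253 and 4006 that came mostly from Lepr, at 4183 and 3915, and Col1a1, Col3a1, Pdgfra, Pdgfrb and Dcn were well above background on neither array. Among 8 dendritic cell markers, 6 were measured and 2 were at least 2-fold lower, Itgax and Ccr7, with summed intensities of 89373 and 92638. Siglech alone read 83903 and 91973 of these, and the sum of the other 5 was 5470 and 664. Most of that sum came from Itgax, at 5180 and 597, a gene also listed above for lipid-associated macrophages. Of the 6 markers measured, 4 were lower and 2 higher, Siglech and Zbtb46, the latter by 0.62. Flt3 and Cd209a gave bounds of -0.41 and -0.64. The part of these other cells in the differences of Lpl, Pparg and Fabp4 was not tested.

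**Figure D5:**
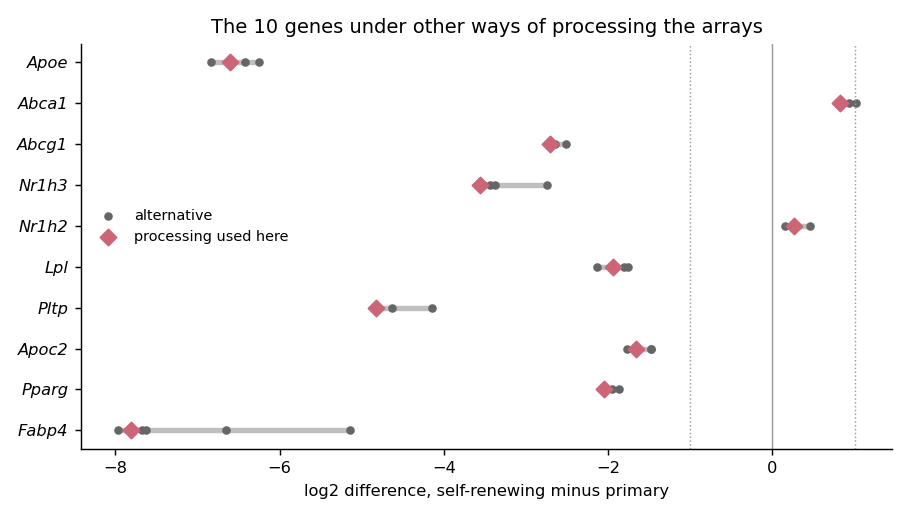
Log2 difference, self-renewing minus primary, of each of the 10 genes under the main setting and under each alternative background correction, scaling, filter or probe rule. No gene crosses 0: Abca1 stays between 0.80 and 1.01, Nr1h2 between 0.16 and 0.46, and the other 8 genes stay below -1.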

How the data were processed

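Total RNA of 1 culture per cell type was hybridised to Agilent mouse arrays in a single colour. As deposited by the authors, the files hold the scanner output of Feature Extraction 11.5.1.1, with the intensity of each spot before and after background subtraction and with flags for spots well above background, saturated or outlying. They also deposited a table of these intensity values times 1 constant per array, 1.07 and 1.19, whose origin is not given in the sources used here.

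Control spots and 112 gene spots with an outlier flag on either array were left out, spots of a probe were averaged, and log2 intensity was set to the 75th percentile of the gene probes of each array. Of 59305 gene spots, 0 were saturated. Of 56605 probes, 34807 and 33095 were well above background. Accessions named 32988 of 56598 compared probes through the RefSeq table of GRCm38.p6, while the array design refers to mm9, so no coordinates come from the arrays. Each gene takes the value of its brightest probe by mean intensity. A probe well above background on 1 array only gives a bound, taken against the lowest intensity so flagged on the other array or the probe's own value, whichever is higher, written as at least N-fold. Such a bound holds only for the background correction used here, and the normexp alternative gave smaller differences for several of these genes.

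The 10 genes and all lists were chosen with earlier results of these data known. Named genes are the 10 with every probe, up to 4 genes per list and direction at 2-fold or more, those whose role the text asks for, the 5 nearest in difference to Apoe and to Abca1, and 5 neighbours of Apoe on either side. Results for some of these genes are not reported here. As alternatives, normexp (offset 50) replaced the background correction, and the scaling was replaced by quantile normalization, by the authors' scaled values, or by the 75th percentile or median of probes flagged on both arrays. The background filter was dropped or required both arrays, the probes of a gene were averaged, and 5-fold replaced 2-fold. The scripts were tested on simulated data. R 4.3.3 with limma 3.58.1 gave the normexp values, and Python 3.11.15 with numpy 2.4.6 and pandas 2.3.3 the rest. The number of arrays limits the precision.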

Additional observations from a re-analysis of the deposited data

How the results depend on the processing

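No paired analysis was possible because 1 array stands for each kind of macrophage. For the same reason no replicate could be left out. None of the 10 genes changed direction under any alternative, and 8 remained at least 2-fold lower in each alternative that gave all 10 a value, at the 2-fold threshold. For the 9 genes measured on both arrays, the filter alternatives left each value as it was. The scalings other than quantile normalization shifted all genes by the same small amount. These alternatives therefore say little about direction. With normexp, which raises dim values, the differences were -6.25 for Apoe, -2.74 for Nr1h3, -4.15 for Pltp and -5.14 for Fabp4. With the mean over probes, that of Fabp4 was -6.65. At 5-fold, 5 genes were lower. Under the authors' scaled values, 1 of the 10 genes, Abca1 at 1.01, was at least 2-fold higher. With only probes well above background on both arrays, Fabp4 had no value, 7 of 9 genes were at least 2-fold lower, and their median was -2.05.

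Counts over all named genes depended more on the setting. Higher and lower genes at 2-fold numbered 739 and 1300 in the main setting, 429 and 750 with normexp, 1192 and 2336 with no filter, and 588 and 782 with the filter on both arrays. The share of higher genes among these was 36.2% in the main setting and 49.2% with the authors' scaled values. Of 1237 alternative values for 158 other genes, 1159 moved by less than 0.325. With normexp, differences were smaller than the bounds given for Scd2, at -8.58, Scd1, at -4.95, S100a9, at -8.47, S100a8, at -7.28, and Ccr7, at -2.03, and smaller for Abca5, at 1.43, Ccr2, at -5.19, Csrp2, at -4.21, and Dcstamp, at -4.88. The mean over probes gave -1.73 for Mgll and -2.42 for Itgax. Dim probes limit Fabp4, Scd1, Scd2 and Ch25h to bounds.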
